A study of Mus musculus with 10 samples.

Results

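The 10 genes described here encode the transcription factors that build the early heart: *Isl1*, *Nkx2-5*, *Tbx5*, *Tbx20*, *Gata4*, *Gata6*, *Mef2c*, *Hand1*, *Hand2* and *Zfpm2*. They were taken by name from a table of read counts for 36191 mouse gene IDs, all 10 were found there, and 9 of them passed the filter on low counts and were tested among 15819 genes. Their Ensembl IDs are ENSMUSG00000042258 (*Isl1*, chromosome 13), ENSMUSG00000015579 (*Nkx2-5*, chromosome 17), ENSMUSG00000018263 (*Tbx5*, chromosome 5), ENSMUSG00000031965 (*Tbx20*, chromosome 9), ENSMUSG00000021944 (*Gata4*, chromosome 14), ENSMUSG00000005836 (*Gata6*, chromosome 18), ENSMUSG00000005583 (*Mef2c*, chromosome 13), ENSMUSG00000037335 (*Hand1*, chromosome 11), ENSMUSG00000038193 (*Hand2*, chromosome 8) and ENSMUSG00000022306 (*Zfpm2*, chromosome 15). RNA came from cultured mouse cells with the strain background 129x1 x 129S1. The groups were Rybp null mutant embryonic stem (ES) cells at day 0 (1 library), Rybp null ES-derived cardiac cultures at day 8 (2 libraries) and at day 14 (2 libraries), and wild type cells at day 0 (1 library), day 8 (2 libraries) and day 14 (2 libraries). RYBP is a subunit of variant Polycomb repressive complexes, which keep developmental genes silent. Every culture was grown from ES cells kept in medium with leukaemia inhibitory factor and was differentiated through embryoid bodies made in hanging drops, so each holds a mixture of cell types. The labels do not say how many null clones were used, or whether the libraries of a group came from separate cultures. The p-values therefore measure the spread between these libraries, which may be technical. *Rybp* itself checked the genotypes, with 1 to 4 counts in each null library and 64 to 231 counts in each wild type library.

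These factors act as a network. The zinc finger proteins GATA4 and GATA6, the T-box proteins TBX5 and TBX20, the homeodomain protein NKX2-5 and the MADS-box protein MEF2C bind one another and the control regions of contractile genes in cardiomyocytes. ISL1 marks progenitors of the second heart field, which adds cells to the growing heart tube and then turns *Isl1* off. The basic helix-loop-helix proteins HAND1 and HAND2 shape the left and right ventricle in the mouse, and ZFPM2 (also called FOG2) binds GATA4 and adjusts its activity.

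The promoter windows found for the members hold from 0 to 4 matches to motifs of the network's own factors, and from 1 to 33 CpG dinucleotides. The 3 windows shown are those with the most CpG (*Isl1*), the fewest CpG (*Mef2c*) and the most motif matches (*Hand2*). The RefSeq table for GRCm38.p6 matched 5 of the 10 members, and *Mef2c* with 3 start sites. Each sequence runs 5′ to 3′ on the strand of the gene and ends at the base before the start of the transcript. Capitals mark matches on either strand to AGATAA or TGATAA (read by zinc fingers of the GATA family), AAGTG (for NKX2-5), AGGTGT (for T-box proteins), CATCTG (for HAND proteins) or a MEF2 motif.
Isl1 (chr13:116309689-116309938, minus strand): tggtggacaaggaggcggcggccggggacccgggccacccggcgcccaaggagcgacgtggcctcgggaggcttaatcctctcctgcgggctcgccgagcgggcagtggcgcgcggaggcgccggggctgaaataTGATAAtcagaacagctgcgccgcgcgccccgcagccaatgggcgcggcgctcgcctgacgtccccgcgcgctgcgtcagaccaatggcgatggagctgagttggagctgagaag
Mef2c (chr13:83503784-83504033, plus strand): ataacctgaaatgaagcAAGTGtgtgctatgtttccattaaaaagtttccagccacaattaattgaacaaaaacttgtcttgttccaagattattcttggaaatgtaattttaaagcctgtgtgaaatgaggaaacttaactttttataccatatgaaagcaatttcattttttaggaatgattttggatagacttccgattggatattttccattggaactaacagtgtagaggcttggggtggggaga
Hand2 (chr8:57320733-57320982, plus strand): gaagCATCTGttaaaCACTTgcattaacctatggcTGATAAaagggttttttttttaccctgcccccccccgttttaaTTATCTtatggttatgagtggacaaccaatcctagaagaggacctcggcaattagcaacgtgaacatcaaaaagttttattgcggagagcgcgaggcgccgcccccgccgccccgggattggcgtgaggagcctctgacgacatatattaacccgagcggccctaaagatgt
The *Isl1* window held 33 CpG dinucleotides, as many as or more than 96.5% of 32851 windows of 250 bases in that table, whose median was 6. The *Hand2* window held 15 CpG, and this first *Mef2c* window held 1. The windows at the other start sites of *Mef2c* held 6 and 4 CpG. *Hand2* had 4 motif matches, *Isl1* 1, the *Mef2c* window shown 1 and its other windows 2 each, while the windows of *Tbx20* (22 CpG) and *Nkx2-5* (8 CpG) had 0 matches. Of all windows, 9.99% held AGATAA, 7.94% TGATAA, 40.7% AAGTG, 11.8% AGGTGT, 14.4% CATCTG and 2.92% the MEF2 motif. A match is a run of letters; binding was not measured in these samples.

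In ES cells the network was close to silent in both genotypes. At day 0 the null library held between 0 and 13 counts for each member and the wild type library between 0 and 6. *Tbx20* had 1.89 CPM (CPM are counts per 1000000 counts of the library) in the null library and 1.75 CPM in the wild type library. For *Gata4* the null library held 1.89 CPM and the wild type library 1.46 CPM. The other members were at or under 0.585 CPM in either library. With a single library for each genotype this day gave no test. Of the 9 tested members, 7 had at most 4 counts in each of these libraries, too few to read a difference between the genotypes.

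By day 8 all 9 tested members had risen in null cultures and all 9 in wild type cultures. In edgeR's quasi-likelihood test with Benjamini-Hochberg adjustment (called at an adjusted p under 0.05), 19.0% of all tested genes rose in null cells and 21.2% in wild type cells. Members near 0 at day 0 passed the filter on low counts through days 8 and 14, where they are high, and so had to differ; nothing is read from these counts against the shares over all genes. The median fitted log2 fold change was 6.79 in null and 6.65 in wild type cells. With the 3 members at 0 counts at day 0 in null cells and the 4 in wild type cells entered as bounds, the medians were 5.12 in null and 6.04 in wild type cells, so their order depends on how such genes enter. The single day 0 library of each genotype was taken to vary as much as replicated groups did. Most members were at or near 0 at day 0, so their rise is given as a ratio of pooled CPM with its 95% counting interval, or as a bound against 3 counts over the group. *Hand2* rose at least 101-fold in null cells and at least 75.3-fold in wild type cells. *Hand1* rose 188-fold in null cells (51.7 to 1558) and at least 74.6-fold in wild type cells. *Gata6* rose 147-fold in null cells (40.5 to 1222) and at least 57.2-fold in wild type cells. *Tbx20* rose 62.8-fold in null cells (36.5 to 118) and 86.6-fold in wild type cells (39.7 to 237), and *Gata4*, with counts already at day 0, rose 13.3-fold in null cells (7.59 to 25.4) and 25-fold in wild type cells (10.5 to 77.6). *Zfpm2* rose 33.2-fold in null cells (12.7 to 123) and 79.2-fold in wild type cells (21.7 to 657), and *Isl1* 32.0-fold in null cells (5.38 to 1301) and 36.2-fold in wild type cells (6.28 to 1450). *Mef2c* rose at least 34.8-fold in null cells and 126-fold in wild type cells (22.5 to 5012), and *Tbx5* at least 20.1-fold in null and at least 15.0-fold in wild type cells. The bounds for a day 0 library at 0 depend on its depth, which was 6890792 counts for the null and 3419681 counts for the wild type library, so the size of a bound does not order the genotypes. The genotype-by-day term between days 0 and 8 passed for 0 of 9 members in edgeR, at an unadjusted p under 0.05 for 0, and in DESeq2 for 0. Of all tested genes, 0.0316% passed in edgeR and 8.88% had an unadjusted p under 0.05. *Tbx5* and *Hand2* had 0 counts in both day 0 libraries, so their term had no usable standard error and could not pass. Among the other members the standard error reached 3.5 on the log2 scale, for *Isl1* and *Gata6*. By day 14, 8 of the 9 members still passed as higher than at day 0 in each genotype (23.8% of all tested genes in null and 24.1% in wild type cells), and *Isl1* was the exception in both.

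*Nkx2-5*, the homeodomain factor that marks committed cardiac cells, was the member that did not come up. It had 0 counts in all 5 null libraries, 1 count in a single wild type day 8 library and 1 count in a single wild type day 14 library. It was too low to be tested, and at or below 3 counts in either group no fold can be given. A count of 0 allows up to 0.72 and 0.891 CPM in the null day 8 libraries, by the limit of 3 counts. Wild type day 8 cultures averaged 0.165 ± 0.234 CPM (SD, n = 2).

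**Figure D1:**
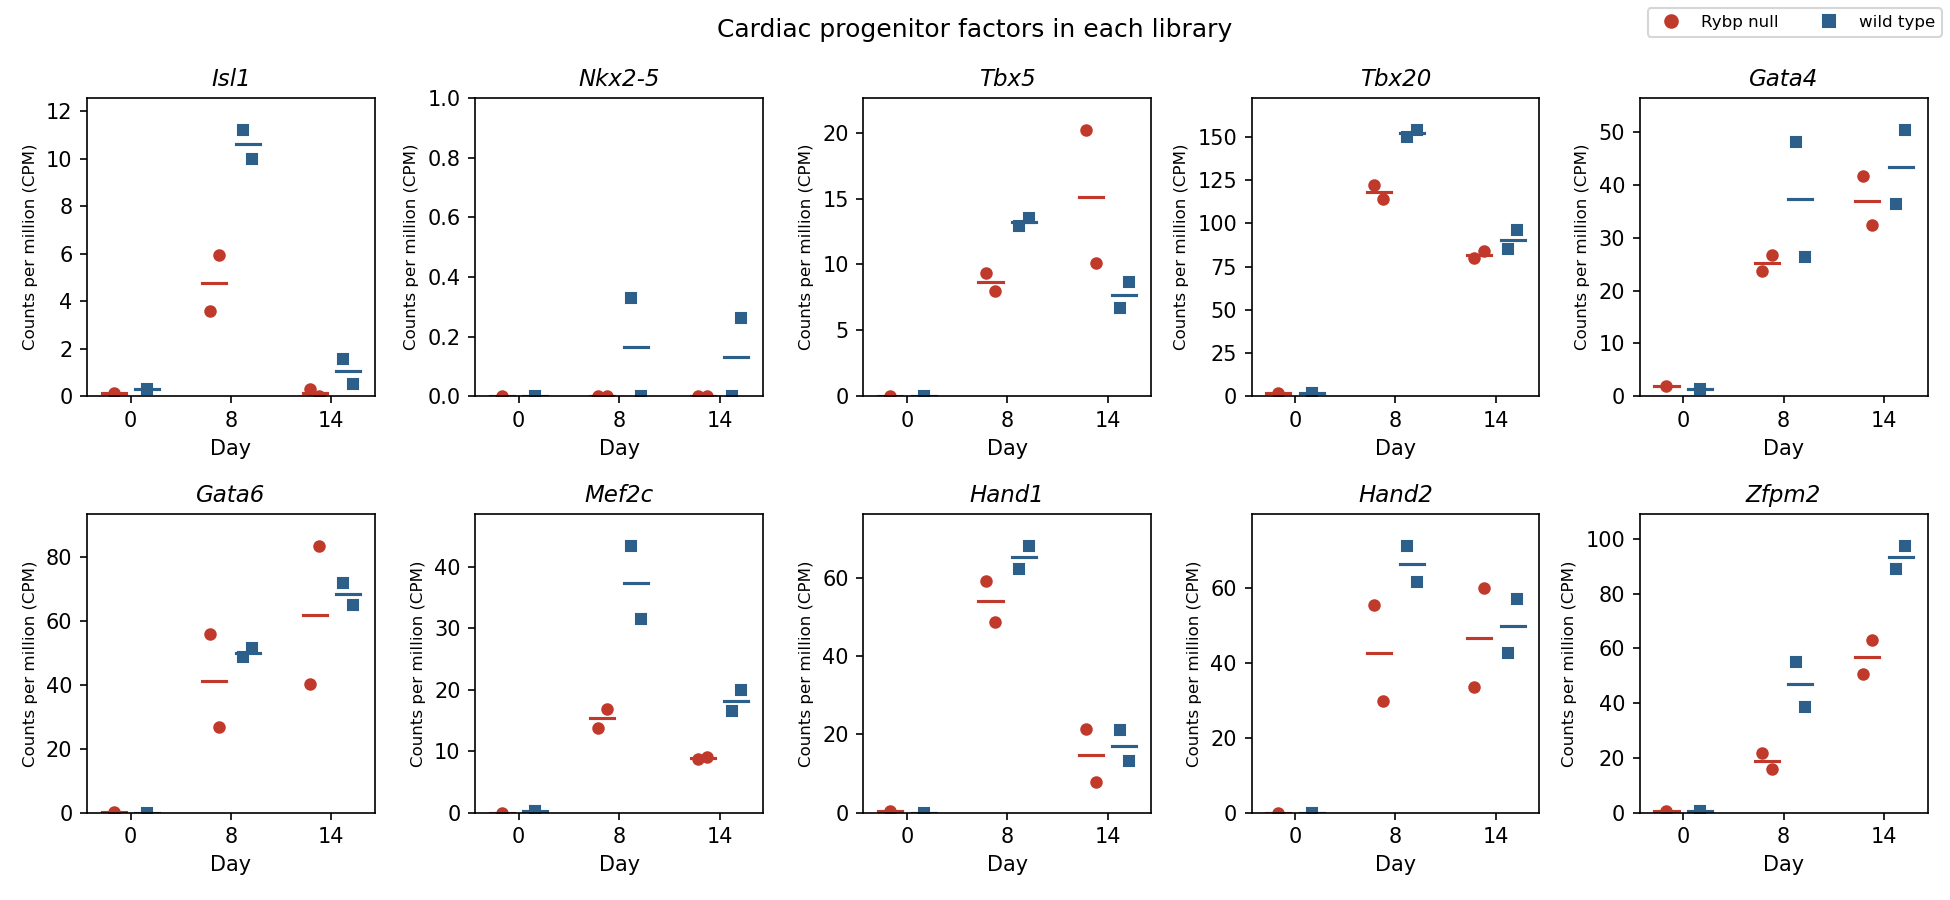
Levels in CPM (vertical axis, a separate linear scale for each gene) of the 10 cardiac progenitor factors by day (horizontal axis). Each point is 1 library, red circles are Rybp null and blue squares wild type, and dashes are group means; *Tbx20* reaches 150 and 154 CPM in wild type day 8 libraries, while *Nkx2-5* stays under 1 CPM everywhere.

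At day 8 every tested member stood below its wild type level in null cultures, and for 1 of them the difference passed the test. *Zfpm2*, the GATA cofactor, had 21.9 and 16.0 CPM in null cultures, against 55.1 and 38.7 CPM in wild type cultures. It fell by 1.27 on the log2 scale (SE 0.28, edgeR adjusted p = 0.0468), and both null libraries were below both wild type libraries. That is 1 of 9 members called, where 1.26% of all tested genes were called in either direction and 0.759% were called lower. At an unadjusted p under 0.05 stood 2 of 9 members, *Zfpm2* and *Mef2c*, and 13.4% of all tested genes. Standard errors (SE) were derived from each gene's F statistic and log2 fold change. The call lay near the threshold: in 8 of 14 alternative settings *Zfpm2* no longer passed. Over all 14 settings its log2 fold changes lay between -1.56 and -1.01. Without null day 8 replicate 2, wild type day 8 replicate 1 or replicate 2, or wild type day 14 replicate 1 or replicate 2, the adjusted p of *Zfpm2* was 0.101, 0.443, 0.1, 0.0953 and 0.0973, in that order.

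*Mef2c*, which switches on contractile genes, differed by as much. It had 13.7 and 16.9 CPM in null cultures, against 43.3 and 31.5 CPM in wild type cultures, without overlap. Its log2 fold change of -1.27 (SE 0.30, edgeR adjusted p = 0.0662) did not pass. *Isl1*, the second heart field marker, had 3.60 and 5.94 CPM in null cultures, against 11.2 and 10 CPM in wild type cultures. The groups did not overlap, and at 35 counts in null and 69 counts in wild type cultures the log2 fold change was -1.15 (SE 0.58, edgeR adjusted p = 0.42). In bulk RNA, fewer cells of a type and less RNA per cell cannot be told apart, and this holds for each difference between genotypes.

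The T-box and HAND genes differed by less. *Tbx20*, needed for chamber growth, had 122 and 114 CPM in null cultures, against 150 and 154 CPM in wild type cultures (a log2 fold change of -0.34, SE 0.18, edgeR adjusted p = 0.447). *Tbx5*, a factor of the first heart field, had 9.36 and 8.02 CPM in null cultures, against 12.9 and 13.5 CPM in wild type cultures (-0.57, SE 0.41, edgeR adjusted p = 0.602). Neither gene's groups overlapped. *Hand1* had 59.3 and 48.7 CPM in null cultures, against 62.4 and 68.1 CPM in wild type cultures (-0.25, SE 0.35, edgeR adjusted p = 0.821). *Hand2* had 55.5 and 30.0 CPM in null cultures, against 71.3 and 61.6 CPM in wild type cultures (-0.60, SE 0.35, edgeR adjusted p = 0.495). The genotypes did not overlap for *Hand1* or *Hand2*, but the null *Hand2* libraries lay farther apart from each other than the higher of them lay from the lower wild type library.

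The GATA genes overlapped between genotypes. *Gata4* had 23.8 and 26.7 CPM in null cultures, against 48.2 and 26.3 CPM in wild type cultures, so 1 wild type library stood apart and the other lay between the null libraries (log2 fold change -0.54, SE 0.32, edgeR adjusted p = 0.506). *Gata6* had 55.7 and 26.7 CPM in null cultures, against 48.5 and 51.5 CPM in wild type cultures, with the null libraries on either side (-0.25, SE 0.38, edgeR adjusted p = 0.842). Without null day 8 replicate 2, the log2 fold change of *Gata6* was 0.20, above 0. Genes of chromosomes 8 and 14, where *Hand2* and *Gata4* lie, had median log2 fold changes of 0.15 and 0.36 at day 8, beside -0.035 for the autosomes other than 1, 6, 8 and 14. The part of this shift in the values of *Hand2* and *Gata4* was not tested. An antisense gene overlaps exons of *Hand2* (*Hand2os1*) and another overlaps exons of *Gata6* (*1010001N08Rik*); the strand setting of the counting is not given in the sources used here, so their reads cannot be told apart.

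Over the 9 tested members the median log2 fold change at day 8 was -0.57, and 9 of 9 lay below 0. Over all 15819 tested genes the median was 0.012 and 47.8% lay below 0. In 7 of 9 members both null libraries lay below both wild type libraries, where 21.8% of all tested genes showed that order.

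At day 14 the log2 fold changes were closer to 0 for most members, and no difference was called. In edgeR 0 of 9 members passed, 4 had an unadjusted p under 0.05 and DESeq2 called 0, where edgeR called 0.613% of all tested genes and 12.9% had an unadjusted p under 0.05. The 4 members were *Mef2c*, *Zfpm2*, *Tbx5* and *Isl1*. *Mef2c* had 8.76 and 9.11 CPM in null cultures, against 16.5 and 19.9 CPM in wild type cultures (a log2 fold change of -1.04, SE 0.32, edgeR adjusted p = 0.172). *Zfpm2* had 50.7 and 63.0 CPM in null cultures, against 89.1 and 97.3 CPM in wild type cultures (-0.72, SE 0.26, edgeR adjusted p = 0.238). For both genes the null libraries lay below the wild type libraries on both days.

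*Tbx5* was the member that stood higher in null cultures at day 14. It had 20.2 and 10.1 CPM in null cultures, against 6.68 and 8.66 CPM in wild type cultures (a log2 fold change of 0.94, SE 0.41, edgeR adjusted p = 0.361). Of all tested genes, 21.6% had both null libraries above both wild type libraries at this day. The change of its genotype difference between the days was 1.52 on the log2 scale (SE 0.58, edgeR unadjusted p = 0.0229 and adjusted p = 0.736). The genotype-by-day term between days 8 and 14 passed for 0 of 9 members and for 0.0% of all genes in edgeR; 1 member, *Tbx5*, had an unadjusted p under 0.05, as did 6.08% of all tested genes, and DESeq2 called 0 members.

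*Isl1* was close to the detection limit by day 14. It had 0.302 and 0 CPM in null cultures, against 1.59 and 0.525 CPM in wild type cultures, which is 1 count against 7. The pooled wild type level was 7.31 times the null level, with a counting interval of 0.935 to 329. *Tbx20* had 79.7 and 84.0 CPM in null cultures, against 85.2 and 96.0 CPM in wild type cultures (a log2 fold change of -0.16, SE 0.18, edgeR adjusted p = 0.804). The last 4 members overlapped between genotypes. *Gata4* had 41.7 and 32.4 CPM in null cultures, against 36.3 and 50.4 CPM in wild type cultures, and *Gata6* had 40.2 and 83.3 CPM in null cultures, against 71.9 and 64.8 CPM in wild type cultures. *Hand1* had 21.4 and 7.85 CPM in null cultures, against 21 and 13.1 CPM in wild type cultures, and *Hand2* had 33.5 and 60.0 CPM in null cultures, against 42.6 and 57.2 CPM in wild type cultures. In log2 fold changes these 4 genes had -0.25 (*Gata4*), -0.15 (*Gata6*), -0.25 (*Hand1*) and -0.10 (*Hand2*). The median over the 9 members was -0.25, beside -0.015 over all tested genes. In 4 of 9 members both null libraries were lower than both wild type libraries, where 21.9% of all tested genes showed that order.

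**Figure D2:**
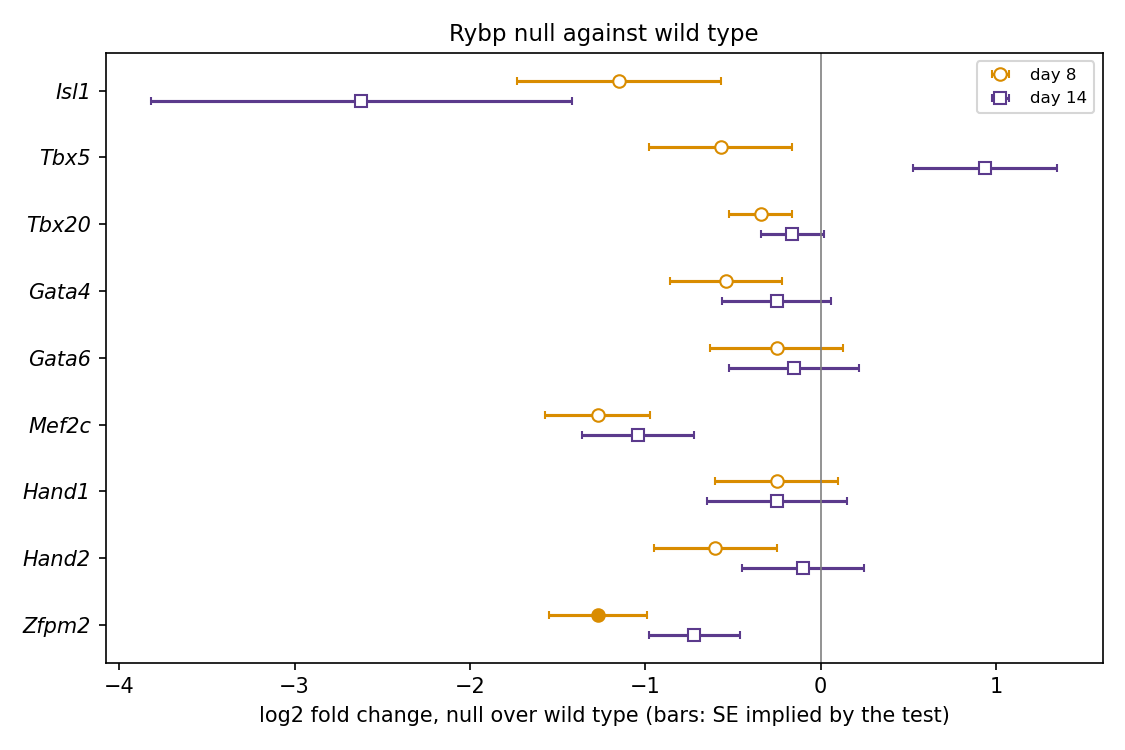
Log2 fold change of null over wild type (horizontal axis) for the 9 tested factors, with orange circles for day 8 and purple squares for day 14. Bars are the standard error implied by the test and a filled symbol passed at an adjusted p under 0.05; *Zfpm2* at day 8 (-1.27) is the filled point, and *Tbx5* at day 14 (0.94) is the point right of 0.

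Between days 8 and 14 *Isl1* and *Hand1* fell in both genotypes. *Isl1* had 0.302 and 0 CPM at day 14 against 3.60 and 5.94 CPM at day 8 in null cultures. Its day 8 level was 33.8 times its day 14 level there (5.68 to 1370; edgeR adjusted p = 0.0103). In wild type cultures *Isl1* had 1.59 and 0.525 CPM at day 14 against 11.2 and 10 CPM at day 8 (log2 fold change -3.35, SE 0.70, edgeR adjusted p = 0.0183). Over both null day 14 libraries *Isl1* had 1 count, as many as in the null day 0 library.

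*Hand1* had 21.4 and 7.85 CPM at day 14 against 59.3 and 48.7 CPM at day 8 in null cultures (log2 fold change -1.96, SE 0.39, edgeR adjusted p = 0.00882). In wild type cultures it had 21 and 13.1 CPM at day 14 against 62.4 and 68.1 CPM at day 8 (-1.96, SE 0.38, edgeR adjusted p = 0.0123). Its relative *Hand2* did not pass in either genotype. *Hand2* had 33.5 and 60.0 CPM at day 14 against 55.5 and 30.0 CPM at day 8 in null cultures, and 42.6 and 57.2 CPM at day 14 against 71.3 and 61.6 CPM at day 8 in wild type cultures.

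*Zfpm2* moved the other way. It rose by 1.53 on the log2 scale in null cultures (SE 0.27, edgeR adjusted p = 0.00537), with 50.7 and 63.0 CPM at day 14 against 21.9 and 16.0 CPM at day 8. In wild type cultures it had 89.1 and 97.3 CPM at day 14 against 55.1 and 38.7 CPM at day 8 (0.98, SE 0.26, edgeR adjusted p = 0.0583), which did not pass. The null level at day 14 thus overlapped the wild type level at day 8. *Tbx20* fell in wild type cultures by 0.76 (SE 0.18, edgeR adjusted p = 0.0372) and had a log2 fold change of -0.58 (SE 0.18, edgeR adjusted p = 0.0776) in null cultures. *Mef2c* had -0.82 (edgeR adjusted p = 0.155) in null and -1.04 (edgeR adjusted p = 0.0782) in wild type cultures, and *Gata4* and *Gata6* had values between 0.21 and 0.53 with adjusted p-values of 0.41 and above.

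In all, 3 of 9 members were called between the days in null cultures (2 lower, 1 higher) and 3 of 9 in wild type cultures (3 lower). Over all tested genes 7.69% were called in null cultures (3.41% lower and 4.29% higher) and 4.04% in wild type cultures (1.57% lower and 2.47% higher). A call in 1 genotype and not in the other is no difference between them: the test of that difference passed for 0 members. Single libraries carried part of these calls. Without null day 14 replicate 2 the adjusted p was 0.0804 for *Isl1* and 0.0526 for *Hand1* in null cultures. In wild type cultures 0 members passed without day 8 replicate 1, day 8 replicate 2 or day 14 replicate 2, and 1 member, *Hand1*, passed without day 14 replicate 1.

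**Figure D3:**
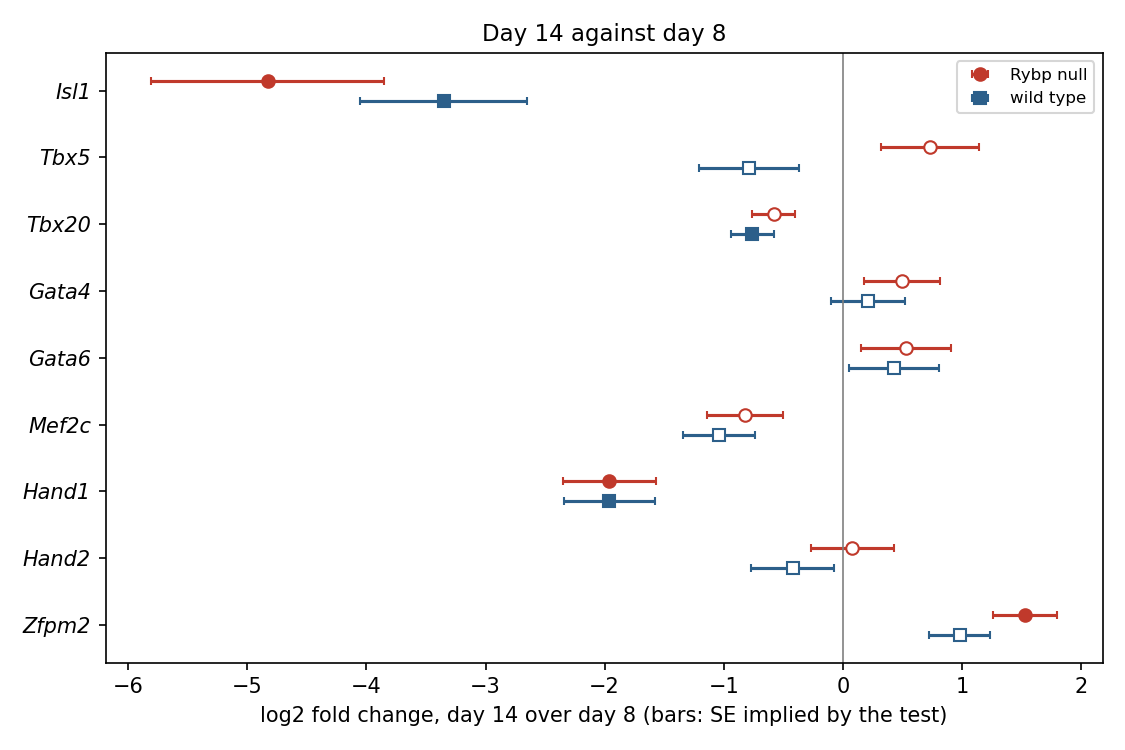
Log2 fold change of day 14 over day 8 (horizontal axis) for the 9 tested factors, with red circles for null and blue squares for wild type cultures. Bars are the standard error implied by the test and filled symbols passed at an adjusted p under 0.05; *Isl1* (-4.83 in null, -3.35 in wild type) and *Hand1* (-1.96 in both) lie far left and *Zfpm2* (1.53 in null, 0.98 in wild type) right of 0.

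Per kilobase of annotated exon, the HAND genes led the network at day 8 in both genotypes. Levels between genes are compared here in CPM per kilobase of all exons of a gene merged, with lengths from GENCODE vM21. The merged length was 1997 bases for *Hand1* and 2351 for *Hand2*, against 11997 for *Tbx20* and 15715 for *Mef2c*. Which transcripts were present was not measured, so the order depends on these lengths. In plain CPM *Tbx20* was the highest member at day 8, with means of 118 in null and 152 in wild type cultures. In null cultures at day 8 the order was *Hand1* (27.0 CPM per kilobase), *Hand2* (18.2), *Tbx20* (9.84), *Gata4* (6.47), *Gata6* (6.33), *Zfpm2* (1.99), *Tbx5* (1.86), *Isl1* (1.21), *Mef2c* (0.974) and *Nkx2-5* (0). In wild type cultures the level was 32.7 CPM per kilobase for *Hand1*, 28.3 for *Hand2*, 12.7 for *Tbx20*, 9.55 for *Gata4*, 7.69 for *Gata6*, 4.92 for *Zfpm2*, 2.82 for *Tbx5*, 2.68 for *Isl1*, 2.38 for *Mef2c* and 0.0961 for *Nkx2-5*. By day 14 *Hand1* had dropped to 7.33 CPM per kilobase in null and 8.54 in wild type cultures, and *Hand2* led with 19.9 in null and 21.2 in wild type cultures. *Zfpm2* stood at 5.96 CPM per kilobase in null and 9.77 in wild type cultures at day 14.

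The order of group means differed among the factors, although *Tbx20* and *Hand1* had the same order and many steps overlapped. Mean *Isl1* ran from wild type day 8 (10.6 ± 0.854 CPM) through null day 8 (4.77 ± 1.65 CPM) to wild type day 14 (1.06 ± 0.754 CPM), steps without overlap, and the remaining groups overlapped near 0 (SD, n = 2 each). *Mef2c* was highest in wild type day 8 cultures (37.4 ± 8.32 CPM); wild type day 14 (18.2 ± 2.4 CPM) and null day 8 (15.3 ± 2.29 CPM) overlapped, and null day 14 (8.93 ± 0.249 CPM) lay below both. *Gata6* overlapped in each step of its order from wild type day 14 (68.3 ± 5.01 CPM) to null day 8 (41.2 ± 20.5 CPM). *Tbx5* was highest in null day 14 cultures (15.2 ± 7.15 CPM), which overlapped wild type day 8 cultures (13.2 ± 0.408 CPM).

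Among the members, *Gata6* and *Hand2* had the most similar profiles over the 10 libraries. After centring each gene's log2 CPM on its own mean, their root mean square difference was 0.40, against 2.5 for *Isl1* and *Gata6*, the pair farthest apart. Both genes were high in null day 8 replicate 1 and null day 14 replicate 2 and low in the other null libraries of those days. The same measure over all tested genes named the nearest genes of each member. For *Hand2* these were *Svep1* (0.22), *Pcdh7* (0.24) and *Prkg1* (0.28), and for *Gata6* *Gucy1a1* (0.20) and *Igfbp4* (0.32) with an unnamed ID between them. *Mef2c* lay nearest to *Cd44* (0.35), *P3h2* (0.42) and *Caps2* (0.44), and *Zfpm2*, after an unnamed ID, to *Nrep* (0.30) and *Tshz2* (0.32). *Gata4* lay nearest to *Zfp362* (0.23), *Anxa2* (0.24) and *Anxa5* (0.25), and *Tbx20* to *4933427J07Rik* (0.16) and *Olfr613* (0.16). For *Tbx5* the nearest were *Chst15* (0.31), *Cep112it* (0.32) and *Olfml1* (0.32). *Hand1* had *Arhgap6* (0.48), *Rab27b* (0.53) and *Adamts12* (0.53). *Isl1* had *Prtg* (0.56), *Slamf1* (0.57) and *Gfi1b* (0.57). All these profiles share the step between ES cells and later cultures, and likeness over 10 libraries is a description.

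Part of the heart muscle genes that these factors are known to activate, most of them of the sarcomere, were lower in null cultures. Of 21 such cardiac target genes tested, 12 were lower and 0 higher in null cultures at day 8, with a median log2 fold change of -3.09 (also -3.09 where the 2 genes with no null counts enter as bounds). Of all tested genes, 0.759% were called lower at day 8. The list was chosen with earlier results of these data known. Genes with few null counts, such as *Myl3*, passed the filter on low counts through wild type libraries, where they are high. Such genes had to be lower, so nothing is read from the list counts against the shares over all genes. *Myl7*, an atrial myosin light chain, had 0 counts in null cultures, at least 40.8-fold lower. *Myl3*, the ventricular essential light chain, also had 0 counts there and was at least 26.2-fold lower. The cardiac myosin heavy chains *Myh6* (0.72 and 1.78 CPM in null, against 189 and 182 CPM in wild type cultures; -7.21 as a log2 fold change) and *Myh7* (-6.8) and cardiac actin *Actc1* (-6.4) were lower as well. At day 8, *Ttn*, which encodes the sarcomere spring titin, differed by -5.42 (SE 0.28, edgeR adjusted p = 1.22e-06). The calcium handling and pacemaker genes *Atp2a2*, *Casq2*, *Pln* and *Hcn4* did not pass on either day, while the calcium release channel gene *Ryr2* and the exchanger gene *Slc8a1* were lower at day 8. At day 14, 7 of the 21 were lower and 0 higher, with a median of -1.82, and *Ttn* (-2.69) and *Myh7* (-4.23) were among them. Of all tested genes, 0.613% were called in either direction at that day. Without wild type day 8 replicate 1 the day 8 count was 7, and at day 14 the count lay between 2 (without either wild type day 8 replicate) and 11 (without the filter on low counts). The 9 members had medians of -0.57 at day 8 and -0.25 at day 14, and all tested genes 0.012 and -0.015. The summed level of the list was 542 and 541 CPM in null day 8 cultures, against 3413 and 2909 CPM in wild type day 8 cultures, where ES cells had 677 CPM (null) and 993 CPM (wild type). In ES cells 7 of the 24 list genes in the table were at 0 counts in null and 12 in wild type cells. Those sums thus came from the remaining genes and are no level of the list as a whole. Gene by gene, 6 of 21 were higher and 3 lower at day 8 than at day 0 in null cells (median 1.06, or 1.04 with genes at 0 counts as bounds), and 14 higher and 1 lower in wild type cells (median 5.04, or 3.57). Genes at 0 counts at day 0 passed the filter through other libraries, so these counts are not set against shares over all genes. Of the whole list, *Nppa*, *Nppb*, *Myl7* and *Myl3* were at 0 in both null day 8 libraries. *Nppa* and *Nppb* were too low to be tested, and *Nppb* was also at 0 in wild type day 14 cultures.

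Of 24 partners that bind the members or share their sites, tested at day 8, 1 was lower and 1 higher, with a median of -0.33, and 11 had an unadjusted p under 0.05. DESeq2 called 4 lower and 1 higher, and 5 were lower without the filter on low counts; 1.26% of all tested genes were called in edgeR, and 13.4% had an unadjusted p under 0.05. *Smyd1*, a muscle methyltransferase gene and a known target of MEF2C in the mouse, had 5.28 and 4.46 CPM in null cultures, against 94.8 and 99.1 CPM in wild type cultures (a log2 fold change of -4.28, SE 0.32, edgeR adjusted p = 3.02e-05). *Tcf3*, which encodes an E protein that pairs with HAND proteins, had 60.5 and 52.0 CPM in null cultures, against 22.1 and 22.9 CPM in wild type cultures (1.34, SE 0.25, edgeR adjusted p = 0.022). *Tcf3* no longer passed without wild type day 8 replicate 1 (edgeR adjusted p = 0.295), replicate 2 (0.184) or null day 8 replicate 1 (0.0617). At day 14, 0 of 24 partners passed in edgeR, 6 had an unadjusted p under 0.05 and DESeq2 called 1, and the median was 0.08.

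Of 19 second heart field and field patterning genes, 0 passed in edgeR at day 8 (6 at an unadjusted p under 0.05, 0 in DESeq2, median -0.41). At day 14, 0 passed (7 unadjusted, 1 in DESeq2, median 0.26). Over all tested genes edgeR called 1.26% at day 8 and 0.613% at day 14. The shares at an unadjusted p under 0.05 were 13.4% and 12.9%, in that order. Of 21 genes of the BMP, WNT, FGF, Notch and other signals that induce or restrain the network, 0 passed at day 8 (4 unadjusted, 0 in DESeq2; median -0.1). At day 14 the ligand gene *Wnt5a*, a noncanonical WNT, was higher, with 91.5 and 114 CPM in null cultures, against 35.9 and 39.3 CPM in wild type cultures (a log2 fold change of 1.44, SE 0.23, edgeR adjusted p = 0.0176), and the median of the 21 was 0.02. *Wnt5a* lies on chromosome 14, whose tested genes had a median of 0.37 at that day, and it no longer passed without wild type day 14 replicate 1 (edgeR adjusted p = 0.127), replicate 2 (0.207) or null day 14 replicate 2 (0.073). Cardiac mesoderm genes, which precede the members, were mostly low, with *T*, *Mesp1* and *Gsc* at 0 counts at day 8 in both genotypes, and of 3 tested 0 passed in edgeR on either day (1 and 2 unadjusted, 0 in DESeq2).

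**Figure D4:**
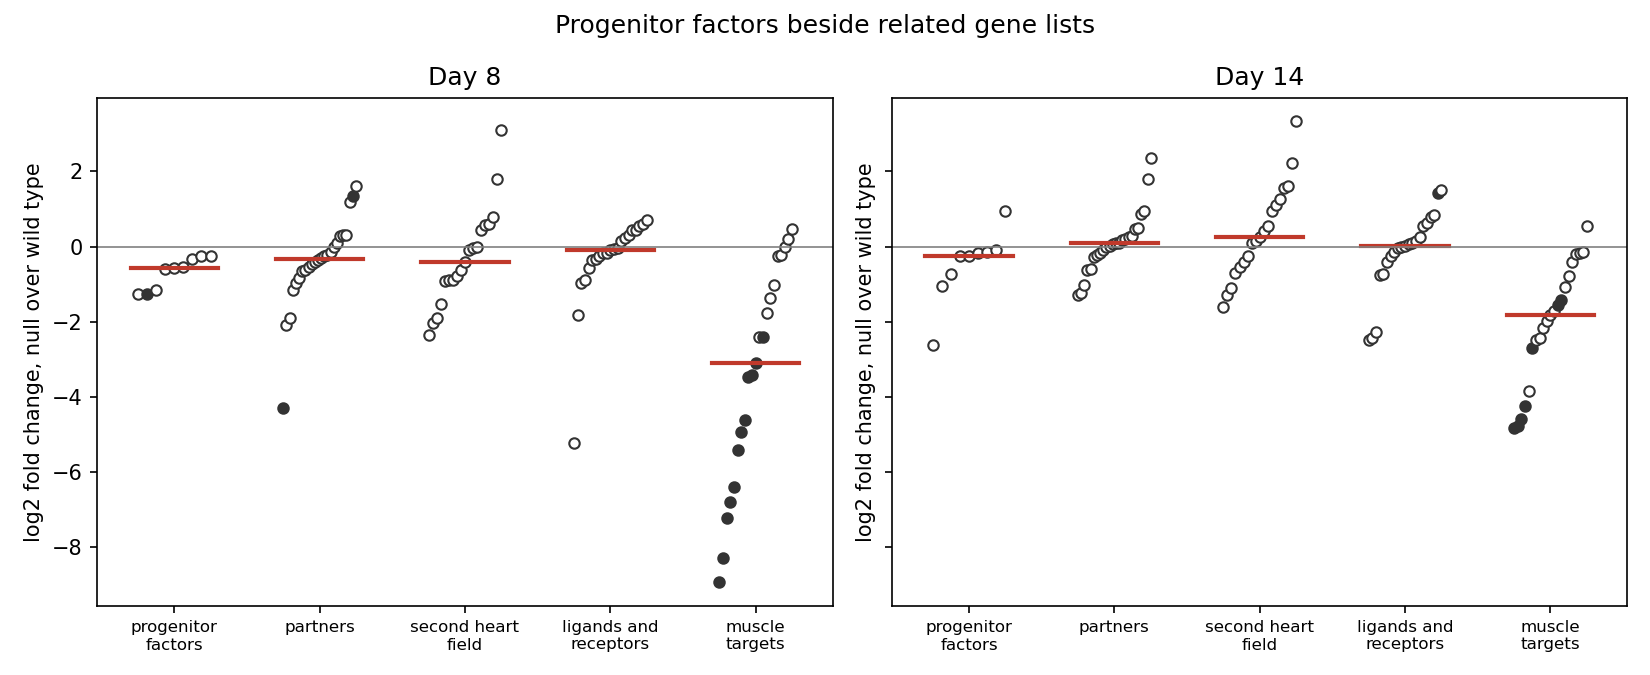
Log2 fold change of null over wild type (vertical axis) for each tested gene of 5 lists, at day 8 (left) and day 14 (right). Each circle is 1 gene, filled circles passed at an adjusted p under 0.05 and red lines are list medians; at day 8 the median is -0.57 for the progenitor factors and -3.09 for the muscle targets.

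Several members are also expressed outside the heart, *Gata4* and *Gata6* in primitive endoderm, *Hand1* in trophoblast and extraembryonic mesoderm and *Isl1* in motor neurons, so markers of these cells were read in the same libraries. For each cell type list from here on, the shares over all tested genes in edgeR were 1.26% called at day 8 and 0.613% at day 14. At an unadjusted p under 0.05 they were 13.4% and 12.9%. Parietal and primitive endoderm genes summed to 4597 and 3537 CPM in null day 8 cultures, against 4719 and 4274 CPM in wild type day 8 cultures. Of 18 tested, 2 were lower and 0 higher at day 8, *Afp* (wild type 72.8 times null, 12.6 to 2919) and *Apoa1* (33.9 times, 11.2 to 167), with a median of 0.07, and 1, *Afp*, was lower at day 14. Without wild type day 8 replicate 1 the day 8 count was 0 (edgeR adjusted p = 0.086 for *Afp* and 0.125 for *Apoa1*), and *Apoa1* was also lost without wild type day 8 replicate 2 (0.118) or null day 8 replicate 1 (0.075). *Afp* at day 14 was lost without null day 14 replicate 2 (0.0806) or wild type day 14 replicate 1 (0.13) or replicate 2 (0.172). Trophoblast genes summed to 460 and 420 CPM in null against 377 and 370 CPM in wild type cultures at day 8, and to 1257 and 977 CPM in null against 558 and 394 CPM in wild type cultures at day 14. Of 13 tested, 1 was higher at day 8, the keratin gene *Krt7* (2.1 on the log2 scale, edgeR adjusted p = 0.0208). *Krt7* no longer passed without null day 8 replicate 2 (edgeR adjusted p = 0.0538), wild type day 8 replicate 1 (0.3) or replicate 2 (0.0597), or with the day 8 libraries alone (0.0764). At day 14, 0 passed in edgeR (6 unadjusted, 1 in DESeq2). Extraembryonic and lateral mesoderm genes summed to 2821 and 2365 CPM in null against 5382 and 4585 CPM in wild type cultures at day 8, with 0 of 11 passing in edgeR (3 unadjusted, 0 in DESeq2). *Postn* made up most of that sum, with a mean of 2321 CPM in null cultures, against 4807 CPM in wild type cultures, and the median of the 11 was 0.64, with 3 below 0. The motor neuron genes *Mnx1*, *Lhx3* and *Lhx4* were at 0 in every library of days 8 and 14, and of 6 neuron genes tested 0 passed on either day (0 unadjusted, 0 in DESeq2). Of the sympathetic and neural crest list 1 gene was tested, *Gata3*, named here after its values were seen. Its log2 fold change was 1.05 at day 8 (edgeR adjusted p = 0.263) and 1.98 at day 14 (0.0548), with an unadjusted p under 0.05 on both days. At day 14 DESeq2 called it higher, as did edgeR with a replicate block, without the filter on low counts, without null day 14 replicate 2 and without wild type day 14 replicate 1.

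Smooth muscle genes summed to 843 and 453 CPM in null against 1334 and 1141 CPM in wild type cultures at day 8. Of 11 tested, 0 passed in edgeR, 5 had an unadjusted p under 0.05, DESeq2 called 1, and 11 of 11 lay below 0 with a median of -0.84. Fibroblast and valve genes summed to 9314 and 5300 CPM in null against 11072 and 9116 CPM in wild type cultures at day 8, with 0 of 11 passing (2 unadjusted, 0 in DESeq2) and a median of -0.02. Of the libraries of days 8 and 14, both sums were lowest in null day 8 replicate 2, which was also the lower null day 8 library for *Hand2*, *Gata6*, *Hand1*, *Zfpm2*, *Tbx5* and *Tbx20* and the higher for *Mef2c*, *Isl1* and *Gata4*. Endothelial genes summed to 435 and 440 CPM in null against 607 and 581 CPM in wild type cultures at day 8, with 0 of 10 called in edgeR (2 unadjusted, 1 in DESeq2) and a median of 0.05; at day 14 *Emcn* and the angiopoietin receptor gene *Tek* (-1.43, edgeR adjusted p = 0.0135) were lower. Neither passed without null day 14 replicate 1 (edgeR adjusted p = 0.1 for *Emcn* and 0.0946 for *Tek*), wild type day 14 replicate 1 (0.0863 and 0.0609) or replicate 2 (0.172 and 0.14), and *Emcn* was also lost without null day 14 replicate 2 (0.116) or wild type day 8 replicate 1 (0.0566) or replicate 2 (0.0573). Pluripotency genes summed to 119 and 267 CPM in null against 76.6 and 117 CPM in wild type cultures at day 8, with 2 of 12 higher, *Dppa5a* (3.22 on the log2 scale, edgeR adjusted p = 0.0144) and *Esrrb* (wild type 0.0936 times null, 0.0185 to 0.296). Neither passed without wild type day 8 replicate 1 (edgeR adjusted p = 0.202 for *Dppa5a* and 0.0899 for *Esrrb*) or replicate 2 (0.0775 and 0.296), or with the day 8 libraries alone (0.107 and 0.172). *Esrrb* was also lost in DESeq2 (0.0642) and in edgeR without null day 8 replicate 1 (0.142) or wild type day 14 replicate 1 (0.0841) or replicate 2 (0.0861). The skeletal muscle genes *Myod1*, *Myf5*, *Myf6* and *Ckm* were at 0 at days 8 and 14 in both genotypes, and of 5 skeletal muscle genes tested 0 passed in edgeR on either day (1 and 3 unadjusted, 0 in DESeq2). The part of these cell type levels in the values of the members was not tested.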

How the data were processed

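RNA of 10 libraries was analysed. The authors deposited raw whole-number read counts per Ensembl gene. TopHat, HTSeq, DESeq and mm9 appear in the submitters' processing notes. Tool versions, the annotation and the strand setting were not given in the sources used here. Total RNA was isolated with TRIzol and libraries were made with NuGEN kits, per the labels' protocols. Library totals ran from 3028153 to 6890792 counts, so genes at a few CPM carry wide counting error; intervals (95%, exact binomial) and floors (3 counts) cover counting error only. Symbols matched 30946 of 36191 gene IDs.

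The counts were tested with edgeR 4.0.16 in R 4.3.3: filterByExpr (minimum count 10), TMM scaling, a robust quasi-likelihood fit with 1 coefficient for each of 6 genotype and day groups (4 residual degrees of freedom), two-sided tests and Benjamini-Hochberg adjustment over 15819 genes. CPM values are counts over library totals without TMM. DESeq2 1.42.0 and other settings were alternatives. The test was checked on simulated counts with genes changed in null day 8 cultures. The changed genes were drawn from genes with higher mean counts, and the simulated spread followed the trend over genes, not each gene's own spread. Members with few counts, such as *Isl1*, lay outside that draw, so the check gives no rate for them. The test called 28 of 100 genes changed 2-fold and 89 of 100 genes changed 4-fold in the right direction. A 2-fold difference that did not pass is thus no sign of equal levels. The members and the 15 gene lists were chosen with earlier results of these data known. From each list at most 5 genes that passed at day 8 or day 14 were named, and for each member the 3 tested genes of nearest profile. The cardiac target genes were the exception, with *Ttn*, *Ryr2* and *Slc8a1* named as well. Motifs were sought in the 250 bases before each start site. Chromosomes and exon lengths came from GENCODE vM21 on GRCm38. Deviations of same-numbered replicates were negatively correlated between days and weakly positively correlated between genotypes of the same day (0.124 and 0.222). The numbers were not taken as pairs, and a pairing within a day was not tested.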

Additional observations from a re-analysis of the deposited data

Results flagged for a closer look

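*Tbx5* was the member whose difference between genotypes had opposite signs on both days. Every null library was below both wild type libraries at day 8, and every null library was above both at day 14. The change of the genotype difference from day 8 to day 14 was 1.52 on the log2 scale (SE 0.58, edgeR adjusted p = 0.736), which did not pass. Leaving out single libraries it lay between 0.99, without null day 14 replicate 1, and 1.92. That library held 20.2 CPM of *Tbx5*, against 10.1 CPM in the other null library of the day. The cause was not tested.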

How the results depend on the processing

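The number of members called in null against wild type cultures at day 8 was 1, and 2 without the filter on low counts (*Mef2c* then had an adjusted p of 0.0222 in edgeR). It was 0 with a replicate block (*Zfpm2* -1.28, adjusted p = 0.091), 0 with TMM from genes outside chromosomes 1, 6, 8 and 14 (-1.23, 0.0525) and 0 with the day 8 libraries alone (-1.28, 0.112). Leaving out single libraries, it lay between 0 and 1, the number called between days 8 and 14 between 1 and 3 in null and between 0 and 4 in wild type cultures, and the other member counts did not move. Under the replicate block *Tbx20* no longer passed between the days in wild type cultures (-0.76, adjusted p = 0.0662); the block changed no other member's call. Same-numbered libraries had correlated deviations of -0.415 between null day 8 and null day 14 and of -0.155 to 0.222 between other groups (7045 genes). The numbers thus do not pair the samples across days. Between genotypes the correlation was 0.124 at day 8 and 0.222 at day 14, and a pairing within a day was not tested. With the numbers of null day 14 exchanged, an alternative chosen after seeing the data, 3 members and 1158 genes were called between the days in null cultures, against 3 and 1217 without a block.

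Of 1019 member values under alternatives, 979 kept direction and side of the threshold, 22 lost the call, 5 gained it and 13 changed sign, each of these 13 with a single library left out. The ranges were, for null against wild type, -0.92 to 0.2 for *Gata6* at day 8, and at day 14 -0.81 to 0.31 for *Gata6*, -0.63 to 0.28 for *Hand2*, -1.09 to 0.29 for *Hand1* and -0.48 to 0.02 for *Gata4*. For day 14 against day 8 they were -0.45 to 0.63 for *Hand2* and -0.14 to 1.2 for *Gata6* in null and -0.15 to 0.69 for *Gata4* in wild type cultures, and for null day 14 against day 0 -2.63 to 0.64 for *Isl1*. The causes were not tested. Over all genes the calls lay between 28 and 708 at day 8 (200 as reported), 14 and 637 at day 14 (97), 0 and 65 for genotype by day between days 8 and 14 (0), 0 and 273 between days 0 and 8 (5), 108 and 1244 between days 8 and 14 in wild type (639) and 613 and 1892 in null cultures (1217), with each highest count without the filter. Depth limits *Isl1* at day 14 and *Nkx2-5* throughout.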

Other observations

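Among the partners of the members, 4 paralogs and cofactors are given here, chosen after their values were seen, and none of the 4 was called by edgeR. Each had libraries of the genotypes that did not overlap on at least 1 day, as had other partners, among them *Meis1*, *Pbx3*, *Mef2a* and *Srf* at day 8. Of all tested genes, 21.8% had both null libraries below both wild type libraries at day 8. At day 14, 21.9% had them below and 21.6% above. On the day not listed below, the genotypes overlapped for *Gata5* (log2 fold change 0.28 at day 14), *Myocd* (0.88 at day 14) and *Zfpm1* (0.11 at day 8). *Tbx3*, a T-box repressor of the conduction system, had 45.6 and 98.9 CPM in null cultures, against 12.2 and 34.9 CPM in wild type cultures at day 8 (adjusted p = 0.297), and 59.8 and 27.6 CPM in null against 16.9 and 7.87 CPM in wild type cultures at day 14 (adjusted p = 0.279). *Gata5* had 1.68 and 1.19 CPM in null cultures, against 5.94 and 5.15 CPM in wild type cultures at day 8 (adjusted p = 0.296). *Myocd*, a coactivator of serum response factor in cardiac and smooth muscle, had 5.76 and 8.32 CPM in null cultures, against 30.4 and 30.1 CPM in wild type cultures at day 8 (adjusted p = 0.168). *Zfpm1*, the close relative of *Zfpm2*, had 5.13 and 5.57 CPM in null cultures, against 1.27 and 0.787 CPM in wild type cultures at day 14 (adjusted p = 0.139); *Zfpm1* lies on chromosome 8, whose tested genes had a median log2 fold change of 0.10 then.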
